A study of Rattus norvegicus with 48 samples.

Results

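A set of 10 genes typical of natural killer and other killer lymphocytes was measured in the lungs of rats that had breathed oil vapor: the granzymes Gzma, Gzmb and Gzmm, the pore former Prf1, the granule proteins Nkg7 and Ctsw, the chemokine Ccl5, the receptor chain Klrd1, and the transcription factors Tbx21 and Eomes. They were chosen by symbol, and all 10 were found among the 30045 genes of the count tables. Male Sprague-Dawley rats inhaled oil vapor at 300 ppm in whole-body chambers, or filtered air as the control. In the repeated schedule they did so for 6 h a day on 4 days a week for 4 weeks, 16 exposure days in all, and in the single schedule for 6 h on 1 day. Lungs were taken 28 days or 1 day after exposure ended, which gave 8 groups of 6 animals: oil vapor and air at 28 days and at 1 day of the repeated schedule, and the same 4 groups of the single schedule. All 48 animals were of 1 strain, 1 library was made from a piece of each lung, and the rats lived in pairs, with the cage mates not stated in the labels. Age at exposure was not given. If it was alike within a schedule, groups taken at 28 days were older at sampling than those taken at 1 day.

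Natural killer cells and cytotoxic T cells kill infected or transformed cells by releasing granules onto them. Perforin, the product of Prf1, makes pores in the target membrane, and granzymes are the serine proteases that pass through and start cell death. The transcription factors T-bet (Tbx21) and Eomes drive the maturation of both cell types and the genes of the granule program, and Runx and Ets factors also act at such genes. The lung holds many natural killer cells, most of them in or close to its vessels, and Ccl5, also called RANTES, draws T cells, monocytes and natural killer cells to a tissue. These roles are background from mouse and human work.

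The libraries were lung by their markers: the surfactant gene Sftpc averaged 5868 ± 907 CPM (the count of a gene scaled to a common library total; SD, n = 48). Defining genes of natural killer cells were present at low levels, with Ncr1, the receptor NKp46, at 7.45 ± 2.06 CPM and Klrb1a at 10.4 ± 3.38 CPM, and so were those of T cells, with Cd3e at 7.51 ± 2.12 CPM and Cd8a at 25.5 ± 6.44 CPM. The libraries held 1.54 to 7.16 mega counts (M) each, so that 3 counts, the most that a count of 0 allows, came to 0.419 to 1.95 CPM by counting error alone. Each of the 10 genes was counted in all 48 libraries, with 7 counts as the lowest value. A lower level in whole lung can come from fewer cytotoxic cells or from less of the RNA per cell, and these cannot be told apart. The library of animal 43, in the oil vapor group of the repeated schedule at 1 day, stood apart: it was the shallowest, its 11 erythroid genes summed to 43204 CPM, against a median of 3275 CPM in its group, and its 13 lung genes to 8157 CPM, against 18406 CPM. Liver genes stood out in animal 17 of the single air group at 28 days, with a sum of 911 CPM against a group median of 175 CPM, in animal 82 of the repeated air group at 28 days, with 1081 CPM against 193 CPM, and in animal 43, with 1106 CPM.

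Across the 8 groups the highest group mean was 1.32 times the lowest for Nkg7 and 1.95 times for Ctsw, with the other genes between. Ordered by mean, neighbouring groups differed by less than the larger of their SDs in all 7 steps for 7 of the genes and in 6 of 7 steps for Prf1, Ccl5 and Eomes. The air group at 1 day of the single schedule held the lowest mean for Gzma, Gzmb, Prf1, Ccl5, Tbx21 and Eomes, and the oil vapor group at 28 days of the repeated schedule the lowest for Gzmm, Nkg7, Ctsw and Klrd1. The summed level of the 10 genes showed the same low ends. In the repeated schedule it was 128 ± 10.01 CPM with oil vapor and 159 ± 19.1 CPM with air at 28 days (mean and SD, n = 6 each), and 154 ± 39.4 CPM with oil vapor and 137 ± 20.1 CPM with air at 1 day. In the single schedule it was 156 ± 37.5 CPM with oil vapor and 161 ± 33.7 CPM with air at 28 days, and 135 ± 24.2 CPM with oil vapor and 113 ± 6.76 CPM with air at 1 day.

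**Figure D1:**
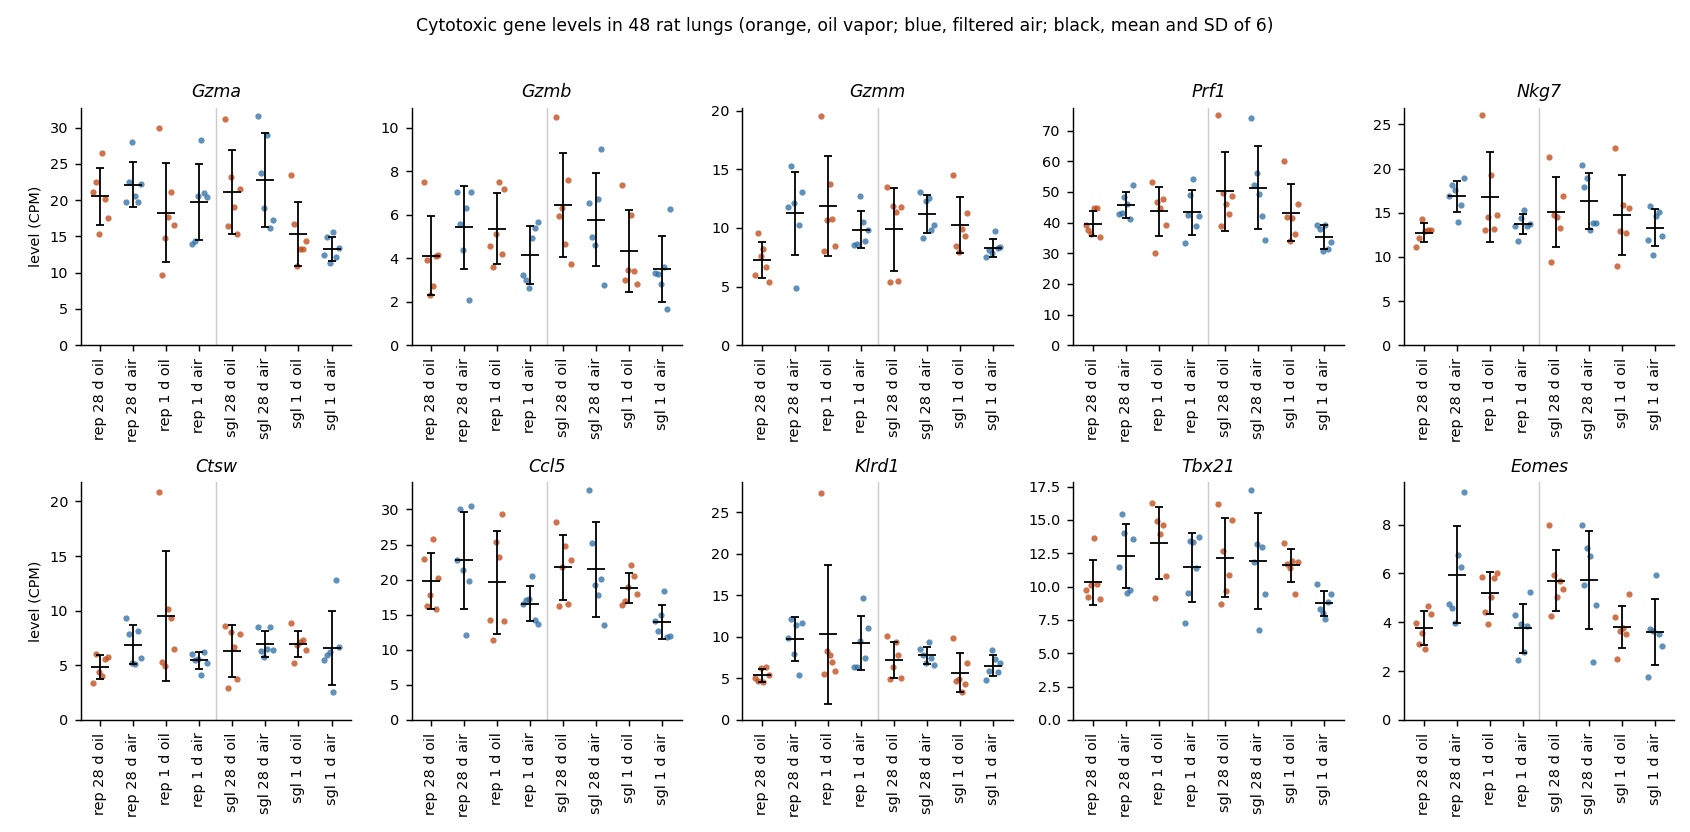
Level of each of the 10 genes (vertical axis, CPM, each panel on its own scale from 0) in the 8 groups (horizontal axis; rep, repeated and sgl, single schedule); points are animals and black marks the mean and SD of 6. Groups overlap in most panels, and the high points of Ctsw at 20.8 CPM and of Klrd1 at 27.3 CPM in repeated oil vapor lungs at 1 day are both animal 43.

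Within groups the genes varied together from animal to animal. Correlations of log2 levels over the 48 libraries, centred within groups, were above 0 for 43 of the 45 pairs of genes, with a median Pearson r of 0.33 and a range of -0.06 to 0.80. Without animal 43 the median was 0.35 and the highest 0.80. These values describe libraries that share a tissue piece and a depth for all genes, and carry no test. The closest pair was Gzma with Prf1 at r = 0.80, followed by Gzmm with Nkg7 at 0.68. Prf1 tracked the mean of the other 9 genes most closely (r = 0.80), then Nkg7 (0.76), Gzma (0.75), Gzmm (0.70), Tbx21 (0.62) and Klrd1 (0.57). Ccl5 (0.39), Ctsw (0.35), Eomes (0.29) and Gzmb (0.24) followed it loosely, and Gzmb had the lowest single count and near-identical relatives in the rat genome between which reads can be split. Tbx21 and Eomes, the pair of related T-box factors, showed no correlation (r = -0.02). Eomes had 8 to 53 counts per library, and counting error at such counts pulls a correlation toward 0.

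**Figure D2:**
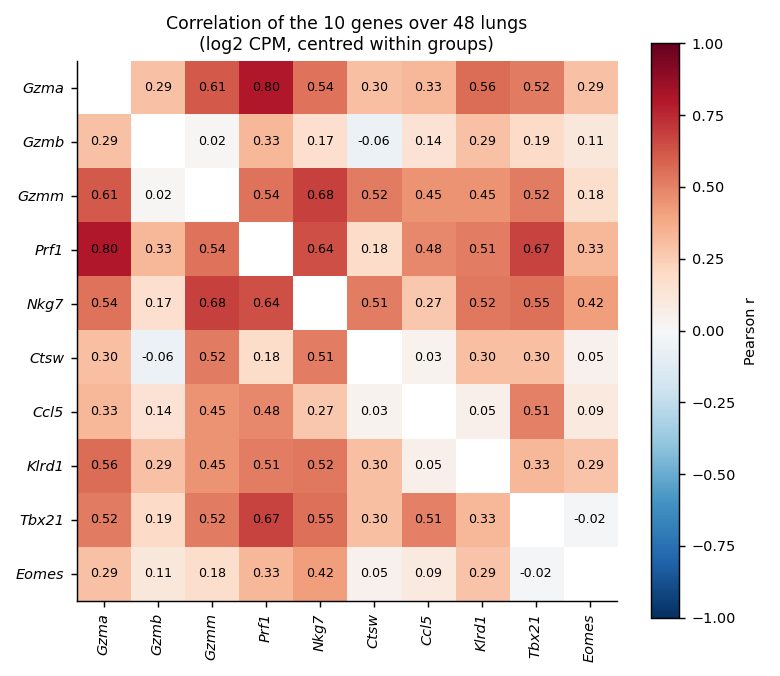
Pearson correlation of each pair of the 10 genes over 48 lungs (log2 CPM centred within groups; color from -1 to 1, diagonal left blank). Gzma with Prf1 is highest at 0.80 and Gzmb with Ctsw lowest at -0.06.

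Some animals were high or low in most of the genes. Animal 24, of the single oil vapor group at 28 days, had the highest level of its group in all 10 genes, with Prf1 at 75.2 CPM, and animal 27 of that group the lowest in 8. Erythroid genes summed to 2427 CPM and liver genes to 139 CPM in animal 24, against group medians of 1908 and 137 CPM. Animal 5, of the single oil vapor group at 1 day, was highest in 8 of the 10 genes and also held the most erythroid RNA of its group, 14110 CPM. Animals 43 and 17, each named above for RNA of other tissues, were highest in 7 of 10 in their groups. The genes outside the set whose levels followed it most closely, among 15544 genes with a mean of at least 1 CPM, were Klrb1a, a receptor of rat natural killer cells, and Gzmk, another granzyme, both at r = 0.79. Txk, a kinase of T and natural killer cells, followed at 0.76, then Klrb1c, Traf3ip3, S1pr4, Cd8a, Stat4, Coro1a and Dok2 at 0.67 to 0.69. Without animal 43 these 10 values were 0.62 to 0.76.

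Between the schedules, erythroid RNA had moved in step in animals matched by their rank by number in matching groups. The labels give no other link between these animals, and whether there is one was not tested. Over the 24 such pairs, log2 summed erythroid counts centred within groups had a Pearson r of 0.94 and liver counts of 0.95. For the summed counts of the 10 genes, not scaled for depth, r was 0.18 and Spearman rho 0.22, with r = 0.17 without the 2 pairs farthest from the median. In log2 summed CPM r was 0.22 and rho 0.10, with r = -0.07 without the 2 pairs farthest from the median of that measure. The one-sided permutation p of the r over all 24 pairs was 0.224 for the summed counts and 0.141 for the summed CPM. Single genes, given as a description, had r from -0.24 (Eomes) to 0.51 (Klrd1) in log2 CPM, with Nkg7 at 0.47 and Ccl5 at 0.43. Without the 2 pairs farthest from the median these 3 were 0.18 for Klrd1, 0.10 for Nkg7 and 0.40 for Ccl5. Over all 24 pairs their one-sided permutation p values were 0.0344, 0.0333 and 0.0230, not adjusted for the 10 genes. The other genes had 0.0676 or more.

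The promoters of the genes that varied most closely together are shown with the 6-base core that Runx factors read, TGTGGT or ACCACA on the other strand, in capitals. Sequences are from RefSeq on the assembly GRCr8, 250 bases before to 50 bases after the start of the gene, read 5′ to 3′ along its strand; 7 of the 10 genes had an entry. The windows lie at chr2:46485647-46485946 on the reverse strand for Gzma, chr20:29788790-29789089 on the forward strand for Prf1, chr7:10667207-10667506 on the reverse strand for Gzmm and chr1:102981247-102981546 on the forward strand for Nkg7.
Gzma: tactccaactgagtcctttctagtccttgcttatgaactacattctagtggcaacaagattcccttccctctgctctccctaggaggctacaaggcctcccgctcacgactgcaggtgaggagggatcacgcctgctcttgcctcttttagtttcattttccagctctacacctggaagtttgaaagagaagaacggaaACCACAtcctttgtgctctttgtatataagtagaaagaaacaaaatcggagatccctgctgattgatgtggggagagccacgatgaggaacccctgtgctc
Prf1: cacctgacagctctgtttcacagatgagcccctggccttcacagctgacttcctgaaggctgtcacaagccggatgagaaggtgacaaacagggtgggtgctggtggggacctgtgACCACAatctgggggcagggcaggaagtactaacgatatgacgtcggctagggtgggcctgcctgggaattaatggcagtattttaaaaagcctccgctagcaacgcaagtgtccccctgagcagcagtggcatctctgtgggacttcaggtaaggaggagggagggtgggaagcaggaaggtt
Gzmm: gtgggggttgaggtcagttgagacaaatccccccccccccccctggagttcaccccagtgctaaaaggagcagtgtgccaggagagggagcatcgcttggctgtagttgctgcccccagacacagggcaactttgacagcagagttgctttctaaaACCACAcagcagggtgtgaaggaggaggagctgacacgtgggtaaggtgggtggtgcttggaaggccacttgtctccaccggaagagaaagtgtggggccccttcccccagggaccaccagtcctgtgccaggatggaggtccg
Nkg7: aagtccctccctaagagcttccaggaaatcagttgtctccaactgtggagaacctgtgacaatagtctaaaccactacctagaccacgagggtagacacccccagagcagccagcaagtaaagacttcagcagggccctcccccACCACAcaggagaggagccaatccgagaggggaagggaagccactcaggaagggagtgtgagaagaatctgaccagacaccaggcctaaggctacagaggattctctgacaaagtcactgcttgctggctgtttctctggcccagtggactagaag
The Runx core occurred once in each of these 4 windows, and in 6 of the 7 windows in all: also in Eomes and, at 3 places, in Gzmb, but not in Tbx21. It was present on either strand in 17.3% of 33469 promoter windows of the same length. A T-box core, GTGTGA or TCACAC, was found in Nkg7, Gzmm and Gzmb, and in 13.7% of all windows. The Ets core AGGAAG or CTTCCT was found in Nkg7, Gzmb and Prf1, and in 34.5% of all windows. No hit of one motif overlapped a hit of another in these 7 windows. A match describes letters in the window only.

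The first question was whether oil vapor moved these genes. In the fits over all 24 libraries of a schedule, no comparison of oil vapor with air called any of the 10. Their fitted values leaned to opposite sides at both times of the repeated schedule. Fold changes are log2 values of oil vapor over air from edgeR's quasi-likelihood test, and a gene was called at a p below 0.05 after Benjamini-Hochberg adjustment over all genes tested. At 28 days of the repeated schedule all 10 genes had lower fitted values in oil vapor lungs, as did 47.5% of all genes, with a median log2 fold change of -0.41 against 0.01 over all genes. Of the 10, 0 were called, as were 0% of the 15005 genes tested, and the smallest adjusted p among them was 0.683, that of Eomes. At an unadjusted p below 0.05, 4 of the 10 were lower, against 2.19% of all genes, and DESeq2 and limma-voom called 0 as well. The 10 genes vary together within groups, so counts among them, here and below, are not counts of independent genes. The 95% intervals of the 10 genes reached from -1.59 to 0.31.

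Those 4 were the receptor chain, the T-box factor Eomes and a pair of granule proteins. Klrd1, which pairs as CD94 with NKG2 receptors to read MHC molecules, had 4.54, 5.24 and 6.33 CPM (lowest, median and highest of 6) in oil vapor lungs, against 5.35, 10.7 and 12.2 CPM in air lungs. Its log2 fold change was -0.87 (SE 0.35, edgeR adjusted p = 0.913). Only animal 87 of the air group lay inside the range of the oil vapor group. Eomes had 2.91, 3.77 and 4.65 CPM in oil vapor lungs, against 3.97, 5.52 and 9.35 CPM in air lungs. The log2 fold change of Eomes was -0.67 (SE 0.22), and 3 of 6 oil vapor lungs were below every air lung. Gzmm, a granzyme most typical of innate-like killer cells, had 5.43, 7.14 and 9.58 CPM in oil vapor lungs, against 4.89, 12.0 and 15.3 CPM in air lungs. The ranges overlapped because animal 86 in air was the lowest of all 12, and the log2 fold change was -0.66 (SE 0.24, edgeR adjusted p = 0.812). Nkg7, a membrane protein of the granule needed for its release, had 11.2, 12.97 and 14.3 CPM in oil vapor lungs, against 13.98, 17.2 and 18.9 CPM in air lungs. That is a log2 fold change of -0.42 (SE 0.16, edgeR adjusted p = 0.849), with 5 of 6 oil vapor lungs below every air lung. Fitted on the 12 libraries of this comparison alone, Klrd1 and Nkg7 passed, with edgeR adjusted p = 0.0288 and 0.0358. That fit called 137 genes in all, so the absence of calls held only with the 1-day groups in the fit. Animal 43, in those groups, was not left out for this comparison.

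**Figure D3:**
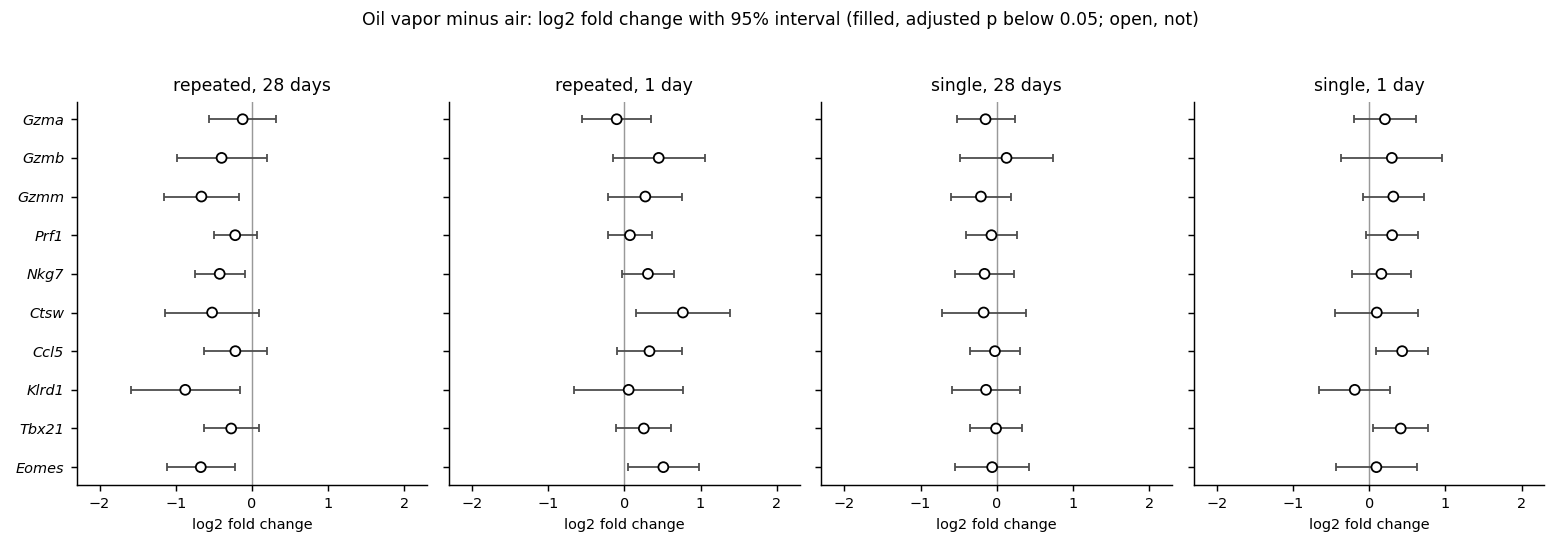
Log2 fold change of oil vapor over air for the 10 genes (horizontal axis) with 95% intervals in the 4 comparisons; a filled point would mark an adjusted p below 0.05. All points are open, and all 10 lie below 0 at 28 days of the repeated schedule.

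Other genes of these cells lay on the same side in that comparison, and none was called in the fit over 24 libraries. Of the 27 natural killer receptor genes listed, 16 were tested and 14 had lower values in oil vapor lungs, with a median of -0.24. The smallest p values were those of the NKG2 family genes Klrc3, with a mean of 2.62 CPM in oil vapor against 4.84 CPM in air lungs and a log2 fold change of -0.90 (SE 0.26, edgeR adjusted p = 0.604), and Klrc1, with -1.12 (SE 0.33). Products of that family pair with that of Klrd1. Klre1, at 1.05 CPM with oil vapor and 2.94 CPM with air, had -1.45 (SE 0.53). The other cytotoxic effectors were lower in 7 of 7 tested, with a median of -0.20, among them Gzmbl3, a relative of Gzmb, at -0.86 (SE 0.39), Tnfsf10, the death ligand TRAIL, at -0.15 (SE 0.08), and Gzmk at -0.44 (SE 0.26). Values of 10 among 15 receptor signalling genes were lower (median -0.09), and Sh2d1a, the adapter SAP, had -0.54 (SE 0.29) whereas the kinase Syk had 0.17 (SE 0.07). T cell genes were lower in 15 of 17, with a median of -0.09, led by Cd3g at -0.64 (SE 0.24). Granule processing genes, most of them active in many cell types, were lower in 4 of 10.

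Genes of other tissues had lower values in the same comparison. Erythroid genes were lower in oil vapor lungs in 10 of 10 tested, with a median of -1.98, platelet genes in 7 of 7 (-1.47), liver genes in 8 of 8 (-3.27) and cardiac muscle genes in 9 of 9 (-2.76), and 0 of these were called. Summed erythroid genes ranged from 1763 to 3099 CPM with oil vapor and from 3046 to 7286 CPM with air, and summed platelet genes from 39.1 to 108 CPM with oil vapor and from 101 to 273 CPM with air. The defining erythroid gene Alas2 was at no less than 71.7 CPM in any of the 48 libraries, and the defining liver gene Alb at no less than 6.64 CPM. With scores of erythroid, liver and cardiac muscle genes as covariates, log2 fold changes were -0.44 for Klrd1, -0.60 for Eomes, -0.43 for Gzmm and -0.20 for Nkg7, and that of Gzma turned to 0.27, against -0.12 without them. Without animal 82, the air lung with the most liver RNA, the median over the 10 genes was -0.37. Over the 19 alternative fits, that with the covariates among them, the median lay between -0.46 and -0.22. The part of other tissues in the lower values was not tested further.

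**Figure D4:**
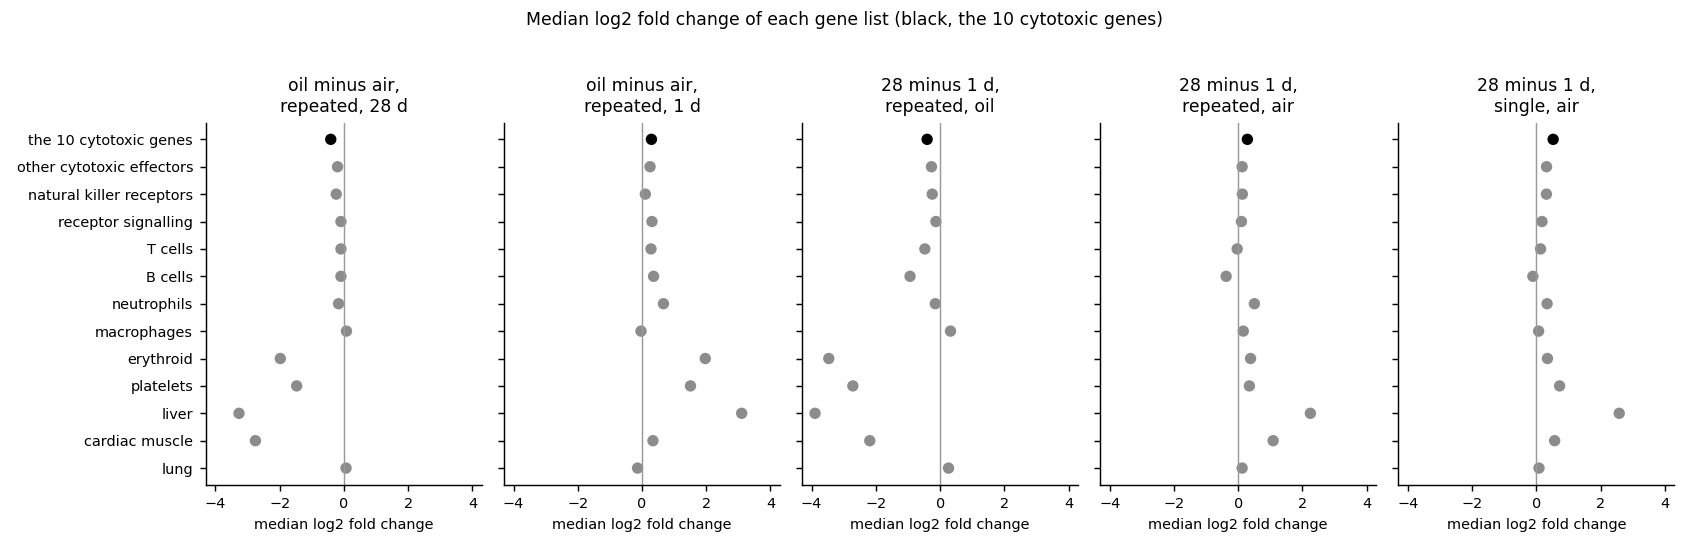
Median log2 fold change (horizontal axis) of the 10 cytotoxic genes (black) and of other gene lists (grey) in 5 comparisons, each over the genes tested. Erythroid, platelet, liver and cardiac muscle lists lie farther from 0 than the cytotoxic genes in the first panel, where the 10 genes are at -0.41 and liver genes at -3.27. The other lists lie nearer to 0 there, with neutrophil genes at -0.17 and T cell and B cell genes at -0.09 each.

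At 1 day of the repeated schedule the values leaned upward in oil vapor lungs. Of the 10 genes 9 were higher, as were 54.7% of all genes, with a median of 0.29 against 0.02 over all genes, and 0 were called, against 0.00666% of all genes. Before adjustment, at a p below 0.05, 2 genes were higher, against 5.8% of all genes, and their 95% intervals together with those of the other genes reached from -0.66 to 1.39. Ctsw, a cysteine protease of killer cell granules, had 4.97, 7.93 and 20.8 CPM in oil vapor lungs, against 4.12, 5.54 and 6.22 CPM in air lungs. For Ctsw the log2 fold change was 0.77 (SE 0.30, edgeR adjusted p = 0.426), and 4 of 6 oil vapor lungs were above every air lung. Eomes had 3.95, 5.43 and 6.04 CPM in oil vapor lungs, against 2.47, 3.90 and 5.23 CPM in air lungs, a log2 fold change of 0.51 (SE 0.22, edgeR adjusted p = 0.473). Klrd1 showed how far a single library weighed. Its log2 fold change was 0.06 with animal 43 and -0.41 without it, and that of Ctsw was 0.43 without that animal. The median over the 10 genes was 0.15 without animal 43. Erythroid, platelet and liver genes had higher values in oil vapor lungs here, with medians of 1.97, 1.51 and 3.10. T cell genes were higher in 17 of 17 with a median of 0.28, led by the T cell factor Tcf7 at 0.35 (SE 0.09). Neutrophil genes were higher in 8 of 8 (median 0.67) and B cell genes in 8 of 8 (0.36), whereas macrophage genes were higher in 3 of 7 (-0.03). The values of all these lists include animal 43 and were not refitted without it.

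Whether the oil vapor effect differed between the times was tested as an interaction, and 0 of the 10 genes passed in the repeated schedule, against 0.00666% of all genes. Effects at 28 days were lower than at 1 day for 10 of 10 genes and for 50.7% of all genes, with a median difference of -0.79, and for 6 of them at an unadjusted p below 0.05, against 4.86% of all genes. The largest differences were those of Ctsw, -1.29 (SE 0.42, edgeR adjusted p = 0.478), and Eomes, -1.18 (SE 0.31, edgeR adjusted p = 0.310). Gzmm had -0.94 (SE 0.33) and Nkg7 -0.73 (SE 0.23). Without animal 43 the median was -0.57, with Eomes at -1.12 and Ctsw at -0.96, and 0 passed. With the scores of other tissues as covariates the median was -0.46, with Eomes at -1.15, Ctsw at -0.59, Gzmm at -0.56 and Nkg7 at -0.36. Among natural killer receptors 14 of 16 had a lower effect at 28 days, Klrc1 with -1.40 (SE 0.46) and Cd226 with -2.73 (SE 0.96). Cd226, an activating receptor, is also carried by platelets, whose genes had a median difference of -2.98 in the same interaction, as erythroid genes had -3.79. The summed receptor genes in repeated oil vapor lungs at 1 day were 305 ± 280 CPM, with a median of 198 and a highest value of 876 CPM. Values of these lists were not refitted without animal 43, and the source of the Cd226 RNA was not tested.

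After a single exposure none of the 10 genes was called at either time. At 28 days 9 of the 10 genes were lower, as were 47.5% of all genes, with a median of -0.10, 95% intervals from -0.72 to 0.74, and 0 called, against 0% of 14820 genes tested. None of the 10 had an unadjusted p below 0.05, against 8.21% of all genes. Without animal 17 the median was 0.02, and without animal 24 it was -0.24. Erythroid genes had a median of -2.02 and liver genes of -3.44 there, and with the scores of other tissues as covariates the median over the 10 genes turned to 0.24. At 1 day 9 of the 10 were higher, as were 53.3% of all genes, with a median of 0.25, and 0 were called, against 0% of all genes. At an unadjusted p below 0.05, 2 were higher, against 4.64% of all genes. Ccl5 had 16.4, 18.4 and 22.1 CPM in oil vapor lungs at 1 day, against 11.8, 13.4 and 18.4 CPM in air lungs. This was a log2 fold change of 0.43 (SE 0.16, edgeR adjusted p = 0.406), and all 6 oil vapor lungs were above the air median. Tbx21 had 9.47, 11.8 and 13.3 CPM in oil vapor lungs, against 7.56, 8.59 and 10.2 CPM in air lungs, and 5 of 6 oil vapor lungs were above every air lung. That is a log2 fold change of 0.41 (SE 0.17, edgeR adjusted p = 0.446). In the same comparison liver genes had a median of 2.58 and cardiac muscle genes of -1.24, and without animal 5, which held the most erythroid RNA, the median over the 10 genes was 0.06.

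The chemokine Ccl4 had means of 3.66 ± 0.563 CPM with oil vapor and 2.35 ± 0.651 CPM with air at 1 day of the single schedule, a log2 fold change of 0.65 (SE 0.26, edgeR adjusted p = 0.432). Sh2d1b, an adapter of natural killer receptors also called EAT-2, averaged 3.18 CPM with oil vapor and 1.51 CPM with air, with 1.05 (SE 0.33, edgeR adjusted p = 0.3504). The interaction with time called 0 of the 10 in the single schedule, against 0% of all genes, with 9 of 10 lower at 28 days, as were 49.9% of all genes, and a median difference of -0.34 (-0.18 without animal 5), which turned to 0.18 with the scores of other tissues as covariates. None of the 10 had an unadjusted p below 0.05 there, against 7.83% of all genes. Effects of oil vapor were also compared between the schedules. At 28 days 0 of 10 passed, against 0% of 15322 genes, with 9 lower, as were 50.3% of all genes, and a median difference of -0.31 (repeated minus single). At an unadjusted p below 0.05 there were 0 of 10, against 5.2% of all genes. At 1 day 0 passed, against 0.0457%, and 5 were higher, against 54.3% of all genes, with 0 of 10 at an unadjusted p below 0.05, against 9.74%. The median there was 0.05, and -0.16 without animal 43, and DESeq2 gave no adjusted p for 7 of the genes there.

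Apart from fits on the compared libraries alone or with covariates, the time after exposure gave the only calls. In air lungs of the single schedule, Gzma and Ccl5 rose at 28 days relative to 1 day, and all 10 genes had higher values, as did 50.8% of all genes. Their median was 0.52, against 0.00 over all genes. The 2 called genes stand against 1.01% of the 14820 genes tested that rose and 3.25% called in either direction. DESeq2 called 3 and limma-voom 2. Before adjustment, at a p below 0.05, 7 were higher, against 6.8% of all genes. Gzma had 16.2, 21.3 and 31.6 CPM at 28 days, against 11.3, 12.9 and 15.7 CPM at 1 day, and the groups did not overlap. Its log2 fold change was 0.81 (SE 0.19, edgeR adjusted p = 0.0189). Ccl5 had 13.6, 19.7 and 32.8 CPM at 28 days, against 11.8, 13.4 and 18.4 CPM at 1 day, with 4 of 6 lungs at 28 days above every lung at 1 day. Its log2 fold change was 0.65 (SE 0.16, edgeR adjusted p = 0.0264).

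The other 8 genes did not pass. Prf1 had 34.4, 50.7 and 74.2 CPM at 28 days, against 30.6, 35.8 and 39.3 CPM at 1 day, with a log2 fold change of 0.57 (SE 0.17, edgeR adjusted p = 0.0607). Gzmb had 0.73 (SE 0.32) and Eomes 0.70 (SE 0.25), Tbx21 0.48 (SE 0.17) and Gzmm 0.45 (SE 0.19). Nkg7 had 0.32 (SE 0.19), Klrd1 0.27 (SE 0.22) and Ctsw 0.11 (SE 0.27). The calls depended on single libraries and on which libraries entered the fit. With all 48 libraries in the fit Ccl5 did not pass (edgeR adjusted p = 0.0594) and Prf1 did (edgeR adjusted p = 0.0402), and with the libraries of these groups alone the adjusted p values were 0.0660 for Ccl5 and 0.0454 for Prf1. Without animal 17 0 genes were called, with Gzma at 0.69 (edgeR adjusted p = 0.0595) and Ccl5 at 0.48 (edgeR adjusted p = 0.0894), and the median was 0.42. Without animal 9, 10 or 18, Gzma alone was called, with adjusted p values of 0.0434, 0.0422 and 0.0319, and Ccl5 had 0.0673, 0.0714 and 0.0596. Without animal 23 Prf1 was called as well (edgeR adjusted p = 0.0277). With scores of other tissues as covariates Gzma had 0.65 (edgeR adjusted p = 0.0544) and Ccl5 0.45 (edgeR adjusted p = 0.173). Liver genes were higher at 28 days in 7 of 7 tested, with a median of 2.58, and ranged from 134 to 911 CPM in sum at 28 days and from 101 to 145 CPM at 1 day. Their part in the rise was not tested beyond these fits.

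**Figure D5:**
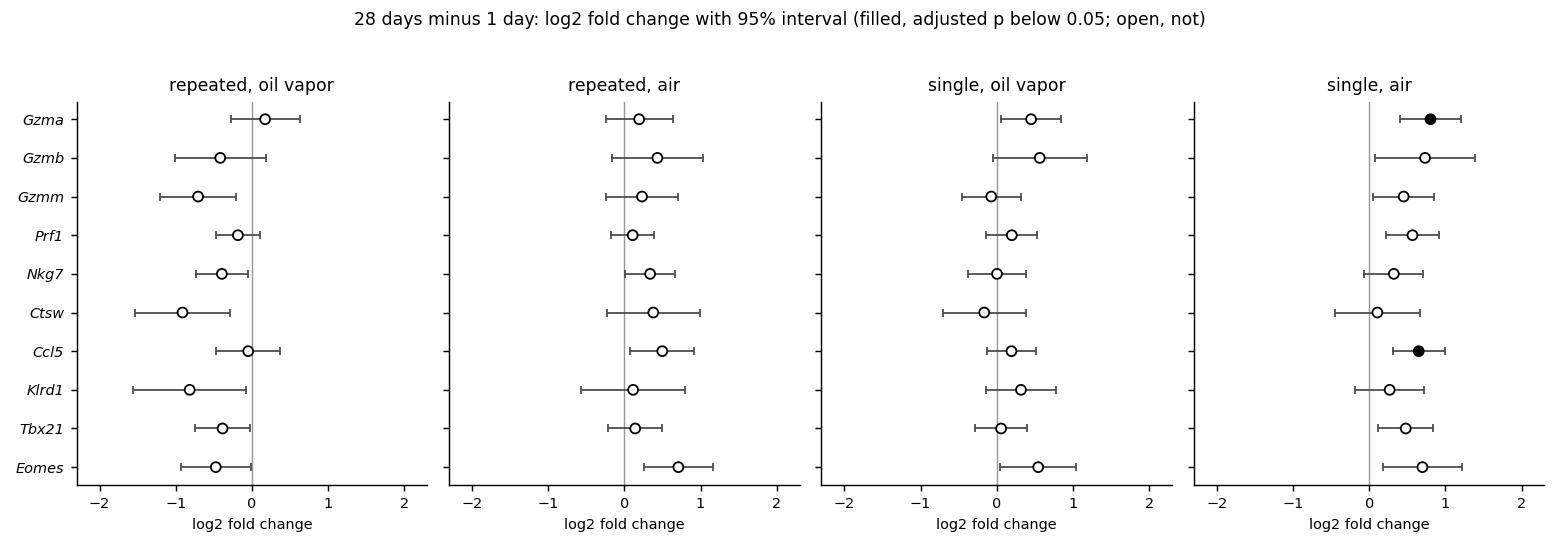
Log2 fold change of 28 days over 1 day for the 10 genes (horizontal axis) with 95% intervals in the 4 combinations of schedule and treatment; filled points have an adjusted p below 0.05. Gzma at 0.81 and Ccl5 at 0.65 in single air lungs are the filled points, and 9 of 10 genes lie below 0 in repeated oil vapor lungs.

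Among receptors for the cytokines that drive killer cells, 1 rose in single air lungs. Il12rb2, a chain of the receptor for interleukin 12, rose, with a mean of 14.04 CPM at 28 days against 9.35 CPM at 1 day and a log2 fold change of 0.60 (SE 0.17, edgeR adjusted p = 0.0429), and was 1 of 10 cytokine and receptor genes tested to do so. Il2rb, the chain shared by the receptors for interleukin 2 and interleukin 15, had 0.35 (SE 0.15), and the receptor chain Il18r1 0.36 (SE 0.16). S1pr1, which guides lymphocytes out of tissues and is abundant in endothelium, rose by 0.43 (SE 0.09, edgeR adjusted p = 0.00844) and was 1 of 10 chemokine and homing genes to do so. The homing receptor Cxcr6 had 0.54 (SE 0.22). No natural killer receptor was called, and 11 of 15 had higher values, with a median of 0.32. Klri1 had 0.54 (SE 0.21), Ncr1 0.45 (SE 0.20), the Fc receptor gene Fcgr3a 0.32 (SE 0.15) and Klrk1, the activating receptor NKG2D, 0.32 (SE 0.15). Among effectors Ccl4 had 0.83 (SE 0.27, edgeR adjusted p = 0.0925) and Cst7, an inhibitor of granule proteases, 0.77 (SE 0.26). T cell genes were higher in 14 of 17, with a median of 0.13 and none called.

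In air lungs of the repeated schedule the 10 genes were again all higher at 28 days than at 1 day, as were 49.5% of all genes, with a median of 0.29, but 0 were called, against 0.327% of 15005 genes. At an unadjusted p below 0.05, 3 were higher, against 5.82% of all genes. Eomes had 3.97, 5.52 and 9.35 CPM at 28 days, against 2.47, 3.90 and 5.23 CPM at 1 day, a log2 fold change of 0.71 (SE 0.22, edgeR adjusted p = 0.190). Ccl5 had 12.1, 22.04 and 30.5 CPM at 28 days, against 13.7, 16.8 and 20.6 CPM at 1 day. Its value was 0.50 (SE 0.20, edgeR adjusted p = 0.387), beside 0.65 in the single schedule, and 4 of 6 lungs at 28 days were above every lung at 1 day while 1 was below all of them. Nkg7 had 0.34 (SE 0.16). Liver genes were higher in 8 of 8 tested, with a median of 2.25 and 6 at an unadjusted p below 0.05, and neutrophil genes in 8 of 8, with 0.50 and 3. Medians were 1.09 for cardiac muscle genes, 0.38 for erythroid and 0.35 for platelet genes, and 0 genes of these lists were called. The part of other tissues was not tested beyond the covariates, with which the median over the 10 genes was 0.11. Ccl4 stood beside Ccl5 here too, with 4.33 CPM at 28 days against 2.70 CPM at 1 day and a log2 fold change of 0.70 (SE 0.21, edgeR adjusted p = 0.177). The air lungs of both schedules are different animals, and whether the time difference itself differed between them was not tested.

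Oil vapor lungs were set side by side with this. In the single schedule 8 of the 10 genes were higher at 28 days than at 1 day, as were 49.5% of all genes, with a median of 0.20 (0.07 without animal 24), and 0 were called, against 9.43% of all genes. Before adjustment, at a p below 0.05, 2 were higher, against 11.5% of all genes. Gzma had 15.4, 20.3 and 31.2 CPM at 28 days, against 10.95, 13.9 and 23.4 CPM at 1 day, with a log2 fold change of 0.45 (SE 0.19, edgeR adjusted p = 0.136). Without animal 5 it was called at 0.63 (edgeR adjusted p = 0.0265), among 1226 genes called in all. Eomes had 0.54 (SE 0.24). Erythroid genes fell in 7 of 10 tested, with a median of -2.06, liver genes in 5 of 7 (-3.61), platelet genes in 2 of 7 (-1.58) and neutrophil genes in 2 of 8 (-0.41). With the scores of erythroid, liver and cardiac muscle genes as covariates the median over the 10 genes was 0.44, and Gzma was called at 0.90 (edgeR adjusted p = 0.0180), among 560 genes called in all. The part of other tissues was not tested beyond that fit. Of 12 other transcription factors tested 3 fell, Ets1 at -0.23 (SE 0.05), Gata3 at -0.75 (SE 0.18) and Prdm1 at -0.45 (SE 0.14), with edgeR adjusted p values of 0.00666, 0.00756 and 0.0346. The cells behind these values were not identified. The receptor chain Il18r1 rose by 0.51 (SE 0.16, edgeR adjusted p = 0.0374) and S1pr1 by 0.65 (SE 0.09). Cx3cr1, the receptor for fractalkine on monocytes and killer cells, had a value of -0.44 (SE 0.11) and fell.

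In oil vapor lungs of the repeated schedule 9 of the 10 genes were lower at 28 days than at 1 day, as were 52.4% of all genes, with a median of -0.40, and 0 were called, against 0.34% of all genes. At an unadjusted p below 0.05, 6 were lower, against 7.94% of all genes: Ctsw at -0.91 (SE 0.30, edgeR adjusted p = 0.153), Klrd1 at -0.82 (SE 0.36), Gzmm at -0.71 (SE 0.24), Eomes at -0.47 (SE 0.22), Nkg7 at -0.39 (SE 0.16) and Tbx21 at -0.39 (SE 0.18). Without animal 43 these values were -0.58 for Ctsw, -0.36 for Klrd1, -0.52 for Gzmm, -0.41 for Eomes, -0.23 for Nkg7 and -0.30 for Tbx21, with a median over the 10 genes of -0.33. With the scores of other tissues as covariates they were -0.46 for Ctsw, -0.21 for Klrd1, -0.46 for Gzmm, -0.50 for Eomes, -0.16 for Nkg7 and -0.23 for Tbx21, with a median of -0.22. Gzma had 15.4, 20.6 and 26.5 CPM at 28 days, against 9.71, 17.1 and 29.9 CPM at 1 day, and the groups overlapped widely. Cd226 averaged 28.5 ± 7.72 CPM at 28 days against 127 ± 223 CPM at 1 day, and Txk 7.60 ± 0.772 CPM against 14.1 ± 8.44 CPM, so that the spread at 1 day exceeded the mean for Cd226. Lymphoid genes in general had lower values, in 16 of 17 T cell genes (median -0.48) and 8 of 8 B cell genes (median -0.94), and so did erythroid genes (median -3.47), while lung genes had a median of 0.26.

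Between the schedules, air lungs of the repeated schedule at 1 day had higher values than those of the single schedule in 9 of 10 genes and in 49.6% of all genes, with a median of 0.23, and 0 were called, against 3.76% of 15322 genes. Before adjustment, at a p below 0.05, 2 were higher, against 6.94% of all genes. Gzma had 13.9, 20.5 and 28.3 CPM in repeated air lungs, against 11.3, 12.9 and 15.7 CPM in single air lungs, a log2 fold change of 0.56 (SE 0.21, edgeR adjusted p = 0.146). Fitted on the libraries of these groups alone it passed, with edgeR adjusted p = 0.0469, in a fit that called 892 genes in all. Tbx21 had 0.38 (SE 0.18). At 28 days 6 of 10 were higher, as were 49.1% of all genes, with a median of 0.02, and 0 were called, against 0.0457%, with 0 at an unadjusted p below 0.05, against 8.67%. Rats of the repeated schedule were exposed for longer and their counts stand in a table of their own, so schedule, age and table cannot be told apart in these values.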

How the data were processed

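RNA from 48 rat lungs was sequenced, 1 stranded, ribosome-depleted total RNA library per animal made with 12 PCR cycles and no molecular identifiers, per the labels' protocols. The submitters' processing notes name HTSeq 0.6.1, HISAT2 2.1.0, Trimmomatic 0.35, bcl2fastq 2.19 and SAMtools 1.8, and the build Rnor_6.0. For annotation and strand setting, nothing is given in the sources used here. Related granzyme and receptor genes, and overlapping genes, are uncertain. The deposited values are raw counts of reads for each gene symbol, in 2 tables, 1 per schedule. For animal 32 the description names the other table, and title and column were followed.

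From the counts, CPM and log2 fold changes were computed. Each schedule's 24 libraries (all 48 between schedules) entered a model of group means, fitted with edgeR 4.0.16 under R 4.3.3 (TMM, filterByExpr, quasi-likelihood test, two-sided, Benjamini-Hochberg over all genes, 0.05). Standard errors were derived from the F statistic. Intervals are 95%. Likeness used log2(CPM + 0.5). Alternatives were RLE size factors, no filter, DESeq2 1.42.0, limma-voom (limma 3.58.1) with sample weights, other sets of libraries, scores of erythroid, liver and cardiac genes as covariates, and leaving out each animal. The fit was tested on simulated data. The cytotoxic genes and all lists were chosen with earlier results of these data known. The rule for named genes took all 10, the 2 to 4 genes of smallest p in each list described, and the 10 genes most like the set; animals singled out, Rab27a, the wider range of genes called around the 10, and genes repeated for comparison were chosen after their values were seen. Nothing in the labels says that animals of a group were treated apart from each other, so p-values measure the spread between these animals.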

Additional observations from a re-analysis of the deposited data

Results flagged for a closer look

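In 7 of 88 sets of 6 values (10 genes and their sum in 8 groups) a single animal lay far from the other 5 for the width of its group, and chance alone gives about 1 in 20 such sets. Of the 7, 2 were animal 43, in repeated oil vapor lungs at 1 day: Ctsw at 20.8 CPM, with the next animal at 10.1 CPM, and Klrd1 at 27.3 CPM, with the next at 8.33 CPM. In repeated oil vapor lungs at 28 days, Gzmb stood at 7.49 CPM in animal 89, above 4.16 CPM in the next, and Tbx21 at 13.6 CPM in animal 93, above 10.2 CPM. In repeated air lungs at 28 days Gzma stood at 28.0 CPM in animal 84, above 22.5 CPM. In single oil vapor lungs, Prf1 stood at 75.2 CPM in animal 24 at 28 days, above 49.6 CPM, and the summed level of the 10 genes at 180.5 CPM in animal 5 at 1 day, above 138 CPM. No explanation of these values was tested.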

How the results depend on the processing

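In the settings not named here or beside the results, counts of called genes were within 1.5 times of those reported. With only the libraries of the groups compared, 2 genes were called for oil vapor at 28 days of the repeated schedule and 1 for repeated against single air lungs at 1 day, the count also given there with other-tissue scores as covariates. Over all genes these fits called 137, 892 and, with the covariates, 988. For 28 against 1 day in single oil vapor lungs, limma-voom and the covariates each called 1, and leaving out an animal gave 0 to 1. For 28 against 1 day in single air lungs the covariates gave 0 and leaving out an animal 0 to 3. Directions were followed only for genes with an unadjusted p below 0.05 or, for oil vapor against air, with a value flagged above. Among these, Prf1 reversed in single oil vapor lungs at 28 days, at 0.23 with covariates. Without an animal it lay from -0.22 to 0.066, the highest without animal 17. Other genes reversed there too with covariates, since the median over the 10 turned from -0.10 to 0.24. Gzma reversed in repeated oil vapor lungs at 28 days, at 0.27 with covariates. Klrd1 reversed in repeated oil vapor lungs at 1 day, with -0.34 by limma-voom, -0.44 with covariates and -0.41 to 0.25 without an animal. With covariates the median over the 10 genes moved to 0.24 for oil vapor at 28 days of the single schedule, to 0.44 for 28 against 1 day in single oil vapor lungs, and to 0.18 and -0.46 for the interaction with time in the single and the repeated schedule. The rank-pair correlation was 0.71 in the 6 pairs of air lungs at 1 day alone, with a Spearman rho of 0.49. Without the 2 pairs farthest from the median it turned to -0.80. The cause was not tested. At the shallowest library 3 counts are 1.95 CPM, which limits Eomes and Gzmb most. No paired analysis was possible because animal numbers are not shared between groups and the labels give rank by number as no pairing.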

Other observations

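Among effectors of these cells that were not among the 10, Gzmc, Gzmf and Gzmn were at 0 in all 48 libraries, and 6 of 13 effector genes averaged under 1 CPM. Of 27 natural killer receptor genes 10 averaged under 1 CPM.

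Rab27a, which docks killer cell granules at the membrane and also serves secretion in many other cells, lay on opposite sides in the schedules at 1 day. Its mean in the repeated schedule was 50.7 ± 2.79 CPM with oil vapor and 36.9 ± 5.63 CPM with air, with a log2 fold change of 0.53 (SE 0.16, edgeR adjusted p = 0.249). In the single schedule the mean was 36.7 ± 6.84 CPM with oil vapor and 54.3 ± 7.49 CPM with air, with -0.55 (SE 0.15, edgeR adjusted p = 0.250). The difference of both effects, repeated minus single, was 1.08 (SE 0.22) and passed, with edgeR adjusted p = 0.0393, as did 0.0457% of all genes. The air lungs themselves differed between the schedules, at 36.9 CPM in the repeated and 54.3 CPM in the single schedule. Oil vapor lungs differed the other way, at 50.7 and 36.7 CPM. The gene was chosen after its values were seen, and the cause was not tested.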
